A study of Bos taurus with 9 samples.

Results

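Among 9 libraries of bovine oocytes, 3 were compared with the other 6. These 3 are the library that stands in the middle of its treatment when sample titles are put in numerical order (title numbers 11, 17 and 23), and they are called the second pools from here on. The other pools carry title numbers 10 and 12 in the iodoacetate group, 16 and 18 in the dichloroacetate group, and 22 and 24 in the control group. The second pools were chosen because they stood apart from the other pools in these same counts. The labels name no handling, animal or day that sets them apart. The contrast between the second pools and the other pools is therefore described without a test.

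The oocytes came from cattle (Bos taurus) ovaries of slaughterhouse origin. All of them matured in vitro for 24 h as cumulus-oocyte complexes, with FSH, human chorionic gonadotropin, estradiol and fetal bovine serum in the medium of every group. The iodoacetate group also received iodoacetate, known as a blocker of glyceraldehyde-3-phosphate dehydrogenase, an enzyme of glycolysis. The dichloroacetate group received dichloroacetate, known to inhibit the pyruvate dehydrogenase kinases, and the control group received neither compound. The dose given to the sequenced oocytes is not stated. Each library is a pool of 5 denuded oocytes with a first polar body. Whether the 3 pools of a treatment are from separate maturation runs is not stated, so every p-value here reflects no more than the spread among these pools, part of which may be technical.

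A mature oocyte is close to transcriptionally silent. It lives on messenger RNA stored during its growth, and the level of each transcript depends on how much was stored and on how its poly(A) tail and stability are controlled during maturation. In pools of 5 oocytes, a transcript that differs in some oocytes and one that differs in all of them cannot be told apart.

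Genes are given by their Ensembl identifiers, because the count table pairs them with no names and the gene table supplied with it matched 0 of them. For this reason lists of pathway genes were not analysed here, nor were markers that would check the oocyte label or show cumulus cells left after denudation. Libraries held 7776877 to 9834849 counts over 15978 genes, and 12016 genes passed the filter on low counts. Expression is given as CPM, the field's usual unit in which each count is divided by its library's total, here with the total adjusted by the trimmed mean of M-values (TMM).

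The second pools stood at one end of the main variation within treatments. After the mean of each treatment was removed, the first axis held 37.1% of the remaining variance. The second pool scored 28.2 in the dichloroacetate group, 29.8 in the iodoacetate group and 41.7 in the control group, in arbitrary units. The 6 other pools scored between -31.3 and -9.28. These scores are part of what chose the pools. In the control the axis ran mainly between the second pool and the pool with title number 22, which had the score of -31.3.

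Distances between pools, averaged over genes, showed the same arrangement. They were taken from the same log2 CPM values as the axis and are not separate support. With iodoacetate, the root mean square log2 difference was 0.631 and 0.652 from the second pool to the others and 0.578 between the others. With dichloroacetate the corresponding values were 0.604, 0.644 and 0.56. In the control they were 0.774, 0.665 and 0.614. The second pool was thus the most distant member of each treatment. Its CPM was either the highest or the lowest of its treatment for 74.7% of genes in the control, 72.8% with iodoacetate and 73.2% with dichloroacetate. Control pool 22 came close to that, at 71.7%, while control pool 24 was the highest or lowest for 53.6%. The other pools had 61.8% and 65.4% with iodoacetate, and 61.4% and 65.4% with dichloroacetate. Among 3 pools, any 1 is the highest or lowest for about 2 genes in 3 by rank alone.

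Counts were spread over more genes in the second pools. The most abundant genes were ranked within each library. The 10 most abundant genes took 8.25% of counts in the second iodoacetate pool and 9.73% and 9.18% in the other iodoacetate pools. They took 7.99% in the second dichloroacetate pool, against 9.20% and 10.3%. In the control they took 7.63%, against 8.64% and 9.35%. The 1000 most abundant genes showed the same order, with 65.9%, 64.6% and 64.8% in the second pools (iodoacetate, dichloroacetate, control) and 67.5% to 69.1% in the other pools. The second pools had the lowest share in each treatment, and for the 10 as for the 1000 most abundant genes they did not overlap with any other pool. The 95% Wilson intervals of these shares reach at most 0.035 percentage points either side and cover counting error only. The shares come from the counts on which the second pools were chosen, so they are not separate support.

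The number of genes with at least 10 counts was highest in the second pool of each treatment. With every library thinned to 7776877 counts, it was 11167 in the second iodoacetate pool and 11054 and 11046 in the others. It was 11575 in the second dichloroacetate pool, against 10745 and 10944, and 11401 in the second control pool, against 11041 and 11164. The number of genes with at least 1 count did not separate the pools in the same way. At equal depth it was 15185 in the second iodoacetate pool, between the 15217 and 15178 of the others, and 15200 in the second control pool, between 15212 and 15191. Only with dichloroacetate was it the highest, at 15406 against 15046 and 15180. Both numbers of genes come from the counts on which the pools were chosen.

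**Figure D1:**
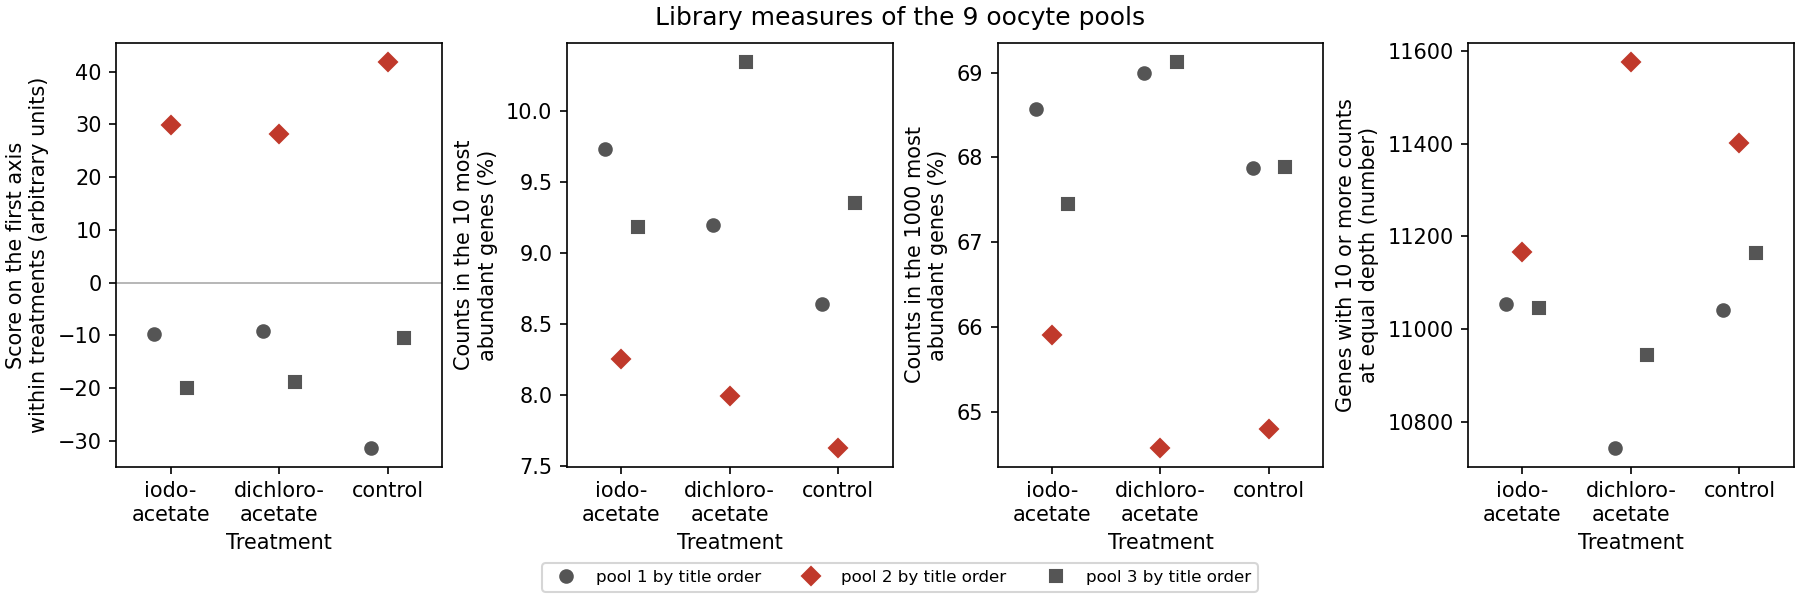
Each point is 1 library, grouped by treatment on the horizontal axis, with the second pools as red diamonds. From left to right, the first panel gives the score on the first axis within treatments. The middle panels give the percent of counts in the 10 and in the 1000 most abundant genes, ranked within each library. The last panel gives the number of genes with 10 or more counts at equal depth. Axes do not start at 0, and the second pool is the highest or the lowest of its treatment in every panel.

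A gene was counted as higher in the second pools when the CPM of the second pool exceeded both other pools in each of the 3 treatments, and as lower when it lay below both in each. By this rule 1925 genes, 16% of those tested, were higher and 1538 genes, 12.8%, were lower. Together they make up 28.8% of the genes tested, and nothing is read from these shares because the pools were chosen on the same counts. Most of the differences were modest. The higher genes had a median log2 fold change of 0.63 and the lower genes one of -0.53, with median standard errors of 0.20 and 0.17 in edgeR's quasi-likelihood fit with treatment as a covariate. Over all genes the median was 0.004, and 90% of genes lay between -0.72 and 0.83.

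A difference over 2-fold was rarer, and it was seen mostly in transcripts of low abundance. There were 244 higher genes over 2-fold, 2.03% of those tested, and 125 lower genes over 2-fold, 1.04%. Only 8 of the 244 and 21 of the 125 had an average expression of at least 5 on the log2 CPM scale, a level that 4143 of the 12016 genes reach. Fold changes of scarce transcripts are also less certain. Below 2 in average log2 CPM, the median size of the log2 fold change was 0.397, with a median standard error of 0.395. Above 8 these were 0.268 and 0.133. The filter asked for 3 libraries past a level of 1.08 CPM, and there are 3 second pools, so a gene could enter through them. Of the 244 higher genes over 2-fold, 78 (32%) passed the filter only with the second pools counted, against 0 of the 125 lower genes. Over all 12016 genes this held for 590 (4.91%), and over all 1925 higher genes for 134 (6.96%). For those 78 genes the filter itself favoured a difference, and nothing is read from their number. These counts depend on which libraries enter. Without the second iodoacetate pool, when only 2 treatments have to show the difference, they were 464 and 298, and without the second dichloroacetate pool 385 and 332. The number of lower genes was 204 without the second control pool and 196 without dichloroacetate pool 16.

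The balance between higher and lower genes depends on the scaling. Under TMM, 55.6% of the genes counted in either direction were higher, and with DESeq2 size factors 51.8%. With library totals alone the second pools had 2910 higher and 802 lower genes, so that 78.4% were higher, and the median log2 fold change of all genes moved to 0.16. All 1925 higher genes were also higher under library totals, whereas 802 of the 1538 lower genes were also lower. TMM factors were larger in the second pools than in the other pools of their treatment, at 1.02, 1.12 and 1.08 (iodoacetate, dichloroacetate, control) against 0.93 to 1.00 for the others. Dropping these factors can only raise a second pool relative to the others of its treatment. Higher genes therefore had to stay higher, and genes lower under library totals had to be lower under TMM.

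Counts taken within a single treatment also hold the spread between its pools. Within a single treatment, the second pool lay above both others for 4583 genes (38.1%) in the control, 4471 (37.2%) with iodoacetate and 4705 (39.2%) with dichloroacetate. It lay below both for 4394 (36.6%), 4273 (35.6%) and 4094 genes (34.1%) in the same order. For 3073 of the 12016 genes the second pool was above both others in 1 treatment or more and below both in another. The second pool was higher in exactly 2 treatments for 2364 genes and lower in exactly 2 for 2453. Among 3 pools, any 1 is the highest for about 1 gene in 3 by rank alone, and likewise the lowest. The other pools were the highest for 25.9% to 36% of genes and the lowest for 27.7% to 35.7%. These counts therefore do not show differences particular to a treatment.

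Measured against the mean of the other pools, the differences were largest in the control. The second control pool was over 2-fold above the mean of the other control pools for 782 genes (6.51%) and over 2-fold below it for 596 (4.96%). With iodoacetate these numbers were 468 (3.89%) and 391 (3.25%), and with dichloroacetate 564 (4.69%) and 312 (2.60%). The standard deviation of the log2 difference over genes was 0.653 in the control, 0.572 with iodoacetate and 0.555 with dichloroacetate. Among the 1925 higher genes, the median log2 difference was 0.71 in the control, 0.60 with iodoacetate and 0.52 with dichloroacetate. Among the 1538 lower genes it was -0.58, -0.42 and -0.49 in the same order. Each treatment here compares 1 library with 2. The size in the control depended largely on pool 22, from which the second pool differed over 2-fold for 2220 genes. From pool 24 it did so for 1370, near the larger count of 1297 with each compound. The other control pools were also the furthest apart, at a root mean square log2 difference of 0.614, against 0.578 with iodoacetate and 0.56 with dichloroacetate. Whether the second control pool itself differed more was not tested.

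Genes picked in 2 treatments were followed in the third, whose libraries had no part in picking those genes, although they had a part in picking the pools. The pools were picked for a difference that the treatments share, so that agreement in the third treatment is in part built in, and the shares are given as a description. The second control pool lay above both other control pools for 76.8% of the 2508 genes that were higher with both iodoacetate and dichloroacetate, and below both for 7.58%. Over all genes these shares were 38.1% and 36.6%. For genes lower with both compounds, 72.2% were also lower in the control and 8.13% were higher. With iodoacetate as the third treatment, 68.2% of the higher and 61.5% of the lower genes went the same way, and with dichloroacetate 68.6% and 63.1%. The genes that went the same way are each time the 1925 higher and 1538 lower genes counted above. These shares therefore differ only in the number of genes picked and are not separate results. The log2 differences of the treatments correlated across the 12016 genes with Pearson's r of 0.325 between iodoacetate and dichloroacetate, 0.432 between iodoacetate and control, and 0.445 between dichloroacetate and control. Genes are not independent replicates, and the treatments share a kit and a depth but no library.

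Genes with a difference over 2-fold in a pair of treatments mostly kept their direction, which is in part built in by the choice of the pools. Of the 12016 genes tested, there were 180 such genes for iodoacetate and dichloroacetate, with 91 higher in both second pools and 53 lower in both. For iodoacetate and control there were 283, with 159 higher and 90 lower in both. For dichloroacetate and control there were 272, with 167 higher and 78 lower in both.

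**Figure D2:**
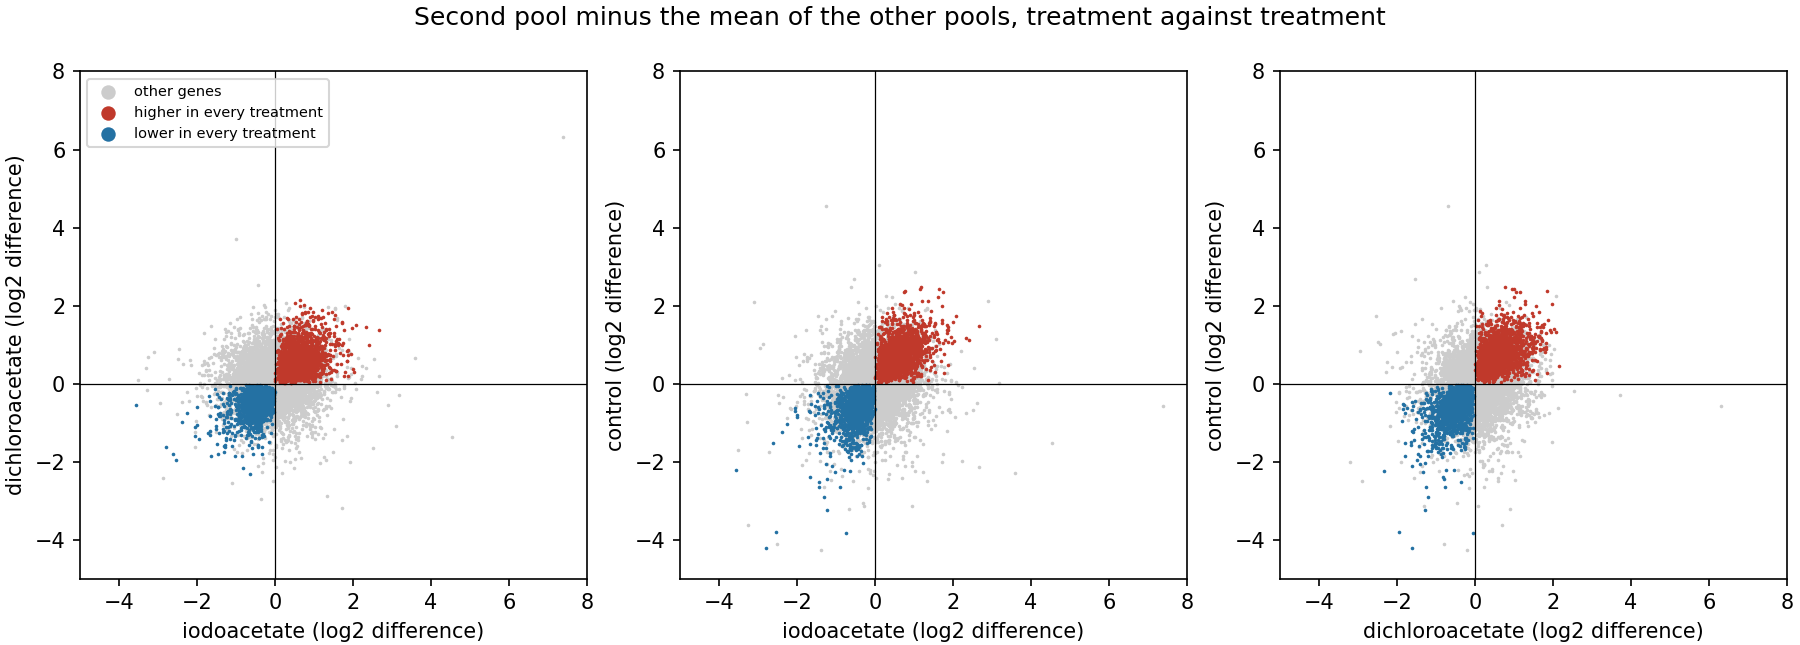
Each point is 1 of the 12016 genes, placed by the log2 difference between the second pool and the mean of the other pools in one treatment (horizontal axis) and in another (vertical axis). Red and blue points are the 1925 and 1538 genes that were higher or lower in every treatment, and grey points are all other genes; the correlations across genes are 0.325, 0.432 and 0.445 from left to right.

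Abundant transcripts tended to be lower in the second pools, and scarce ones higher. Of the 785 genes above 8 in average log2 CPM, 281 were lower in every treatment and 47 higher, which is 35.8% and 5.99%. Of the 3297 genes below 2, 154 were lower and 438 higher, which is 4.67% and 13.3%. Of those 438 higher genes, 134 passed the filter only with the second pools counted, against 1 of the 154 lower ones. In the whole class below 2 this held for 589 of the 3297 genes (17.9%), so the filter itself favoured higher values there. The median log2 fold change was -0.20 in the most abundant class and 0.12 in the least abundant one. With library totals alone these medians were -0.05 and 0.27, and the most abundant class held 159 lower and 135 higher genes, so that its excess of lower genes is relative to the median of all genes.

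The medians decreased from the least to the most abundant class in each treatment, over different ranges. With dichloroacetate the median log2 difference went from 0.24 in the class below 2 to -0.29 in the class above 8. In the control it went from 0.15 to -0.19, and with iodoacetate from 0.04 to -0.09. The class below 2 includes the genes that passed the filter only with the second pools counted, which can raise its medians. Spearman's correlation of the log2 difference with average expression across genes was -0.291 with dichloroacetate, -0.118 in the control and -0.0322 with iodoacetate. The additive fit over all treatments gave -0.156, and -0.0876 with no filter beyond 1 count. It was -0.0635 without the second dichloroacetate pool and -0.197 without the second iodoacetate pool.

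The most abundant genes of the oocyte followed the same order. The log2 fold change was below 0 for 89 of the 100 most abundant genes and for 699 of the 1000 most abundant. With library totals alone these numbers were 76 and 553. The median of the 100 genes was -0.31 under TMM and -0.15 under library totals, and 47 of the 100 were lower in every treatment while 1 was higher. The single most abundant gene was ranked within each library. It took 2.15% of counts in the second iodoacetate pool and 3.12% and 2.96% in the others. Its share was 2.55% in the second dichloroacetate pool, against 3.10% and 3.58%, and 2.19% in the second control pool, against 2.69% and 3.07%. In each treatment the second pool had the lowest such share, in the same counts on which the pools were chosen. Whether the top gene was the same in every library was not checked.

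**Figure D3:**
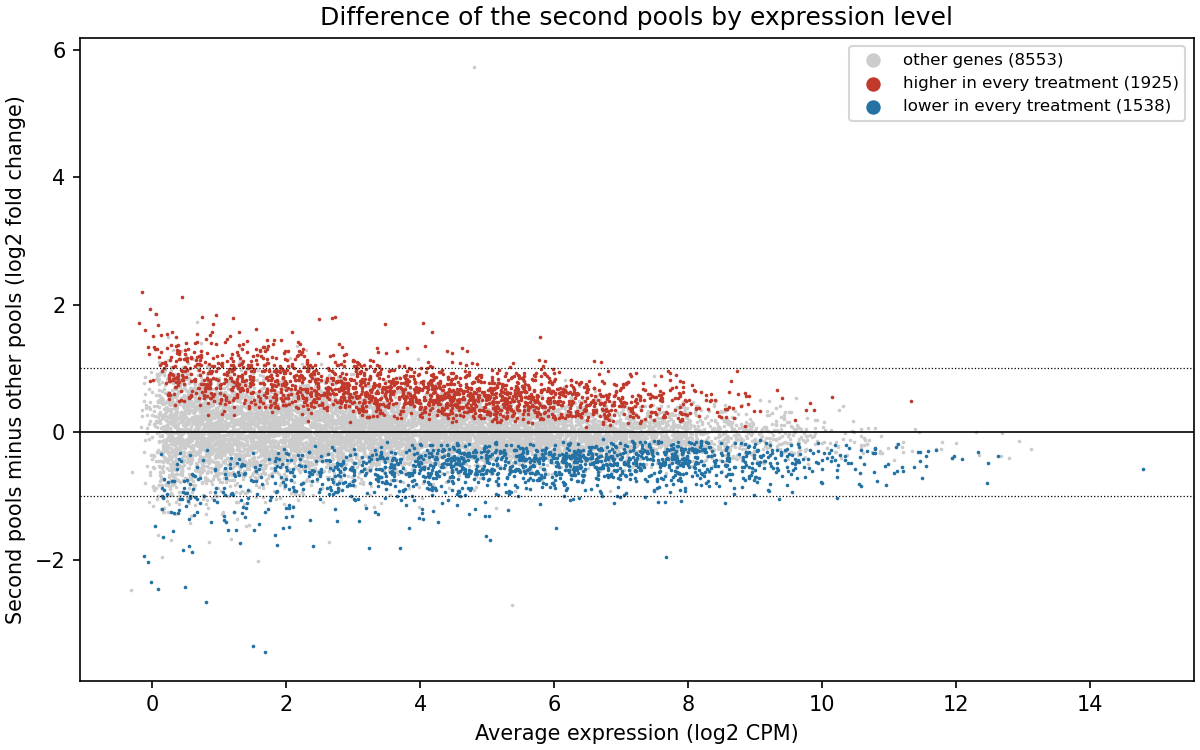
Each point is 1 gene, with average expression (log2 CPM) on the horizontal axis and the log2 fold change of the second pools over the other pools, from the fit with treatment as a covariate, on the vertical axis. Red points (1925) were higher and blue points (1538) lower in every treatment, dotted lines mark a 2-fold difference, and the single grey point near 5.7 is ENSBTAG00000033656.

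**Figure D4:**
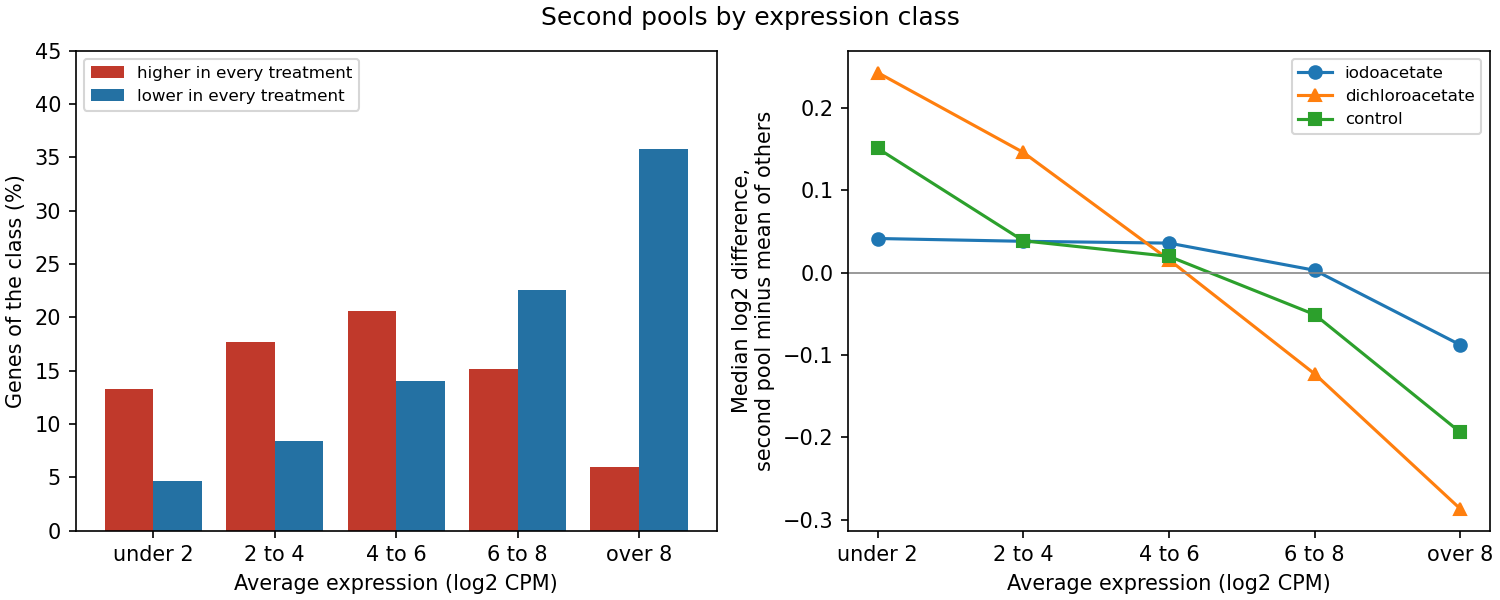
Left, the percent of genes in each class of average expression that were higher (red bars) or lower (blue bars) in the second pool of every treatment; right, the median log2 difference between the second pool and the mean of the other pools in each class, by treatment. Lower genes rise from 4.67% to 35.8% of a class with expression, and the medians go from above 0 to below 0 in all 3 treatments. In the class under 2, 17.9% of genes passed the filter only with the second pools counted.

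The genes with the largest differences in every treatment were scarce transcripts. ENSBTAG00000002682 stood at 1.97, 1.09 and 1.10 CPM in the second pools (iodoacetate, dichloroacetate, control). In the other pools it stood at 0.129 and 0.322 CPM with iodoacetate, 0.243 and 0.274 with dichloroacetate, and 0.423 and 0.308 in the control. All 3 second pools lay above all 6 other pools. The log2 fold change was 2.20 with a standard error of 0.51, and it rests on 19, 11 and 11 reads in the second pools and 1 to 4 reads in each of the others. The gene passed the filter through the 3 second pools alone and was picked for its fold change, so that its separation follows in part from the choice.

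ENSBTAG00000012837 stood at 2.59, 2.07 and 2.11 CPM in the second pools, in the same order. Its values in the other pools were 0.386 and 0.107 CPM with iodoacetate, 0.365 and 1.10 with dichloroacetate, and 0.740 and 0.514 in the control. The second pools again lay above all other pools and close to each other, at 2.26 ± 0.29 CPM (SD, n = 3) against 0.535 ± 0.344 CPM (SD, n = 6). This gene too passed the filter through the second pools alone and was picked for its fold change. The log2 fold change was 2.12 with a standard error of 0.47. The ratio of the second pool to the others was 11.1 with iodoacetate, with a 95% counting interval of 3.82 to 43.7, and 2.92 (1.35 to 6.71) with dichloroacetate and 3.37 (1.58 to 7.51) in the control. Such intervals cover counting error only: the reads were amplified without molecular identifiers, and the spread between pools is not in them.

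ENSBTAG00000001102 was lower in the second pools. It had 0 counts in the second iodoacetate pool, 0.986 CPM in the second dichloroacetate pool and 0.201 CPM in the second control pool. The other pools held 1.67 and 0.644 CPM with iodoacetate, 6.81 and 2.88 with dichloroacetate, and 11.3 and 2.77 in the control. The ranges overlapped across treatments, since the lowest other pool lay below the second dichloroacetate pool, but not within any treatment. With iodoacetate the others were at least 3.58-fold higher, taking 3 counts as the floor of the second pool. In the control they were 34.8-fold higher, with a counting interval of 9.45 to 290 from 2 reads in the second pool. The log2 fold change over treatments was -3.44 with a standard error of 0.77, and it was -5.17 without the second dichloroacetate pool.

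ENSBTAG00000001745 had 0 counts in the second iodoacetate and control pools and 1.18 CPM in the second dichloroacetate pool. The other pools held 5.15 and 0.215 CPM with iodoacetate, 4.74 and 3.57 with dichloroacetate, and 2.11 and 6.99 in the control. Within each treatment the second pool was the lowest, though iodoacetate pool 12 was nearly as low with 2 reads. With the same floor of 3 counts, the others were at least 15.2-fold higher in the control. No fold is given with iodoacetate, where 40 of the 42 reads of the others came from pool 10. With dichloroacetate they were 3.54-fold higher, with a counting interval of 1.90 to 7.20. The log2 fold change was -3.36 with a standard error of 1.32, and -8 without the second dichloroacetate pool, when all remaining second pools are at 0.

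The difference between the second pool and the others was also compared between treatments, as the interaction of pool and treatment, with edgeR's quasi-likelihood test over 12016 genes with Benjamini-Hochberg adjustment. Each treatment has 1 second pool, which is assumed to vary like the others, and the spread comes from the pairs of other pools alone. Those pairs are the closer pools of each treatment, because the second pools were chosen for standing apart in the same counts. The p-values may therefore be too small, and they compare these libraries, not the treatments. With no difference in any gene, a share of 0.05 would have an unadjusted p under 0.05, more than the share given below. In which direction the p-values are off was not tested. The test called 2 genes, or 0.0166%, and 344 genes (2.86%) had an unadjusted p under 0.05. With DESeq2's likelihood ratio test 3 genes were called and with limma on voom weights 1. It has 3 residual degrees of freedom before information is shared between genes, so that differences between treatments can be missed, and the low count does not show that the treatments are alike.

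ENSBTAG00000033656 had the largest log2 fold change between second and other pools of all genes tested, at 5.73 with a standard error of 1.30, and the difference came from 2 of the 3 treatments. It stood at 141 CPM in the second iodoacetate pool, with 0.515 and 0.751 CPM in the other iodoacetate pools. In the second dichloroacetate pool it stood at 99.1 CPM, with 0.852 and 1.23 CPM in the others. In the second control pool it stood at 0.602 CPM, and at 1.59 and 0.616 CPM in the other control pools. The transcript was thus under 2 CPM in 7 of 9 libraries and abundant in the second pools of both compounds, with 1364 and 1005 reads. The ratio of the second pool to the others was 220 with iodoacetate (95% counting interval 122 to 441) and 96.1 with dichloroacetate (58.9 to 169). In the control the others were 1.82-fold above the second pool, with an interval of 0.71 to 5.50 that includes no difference. The adjusted p of the interaction was 8.88e-05 in edgeR's quasi-likelihood test, 0.0341 with limma and 1 without the second control pool, when only the iodoacetate and dichloroacetate pools are compared. Over the other alternatives with a value it lay between 7.14e-18 and 0.0378. The gene passed the default filter only with the second pools counted, since 2 second pools and 2 other pools were past 1.08 CPM. The filter thus favoured its difference. It passed the 5 CPM level in fewer than 3 libraries, so that the stricter filter left it out. Each second pool is 1 library chosen on these counts, so that these p-values do not show a dependence on treatment.

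ENSBTAG00000045578 differed most in the control, through 1 library, the second control pool. That pool was chosen on these counts and has no replicate, so that no dependence on treatment is read from the p-values below. It stood at 2.51 CPM in the second control pool and at 32.6 and 46.4 CPM in the other control pools, a ratio of 15.8 with a counting interval of 10.6 to 24.6. With dichloroacetate its 3 values lay close together, at 57.4 CPM in the second pool and 60.8 and 57.8 CPM in the others. With iodoacetate it stood at 54.2 CPM in the second pool and 116 and 71.5 CPM in the others, 1.69-fold lower in the second pool than in the others together, where the others themselves ranged from 71.5 to 116 CPM. The adjusted p of the interaction was 0.0155 in edgeR's quasi-likelihood test. It was 1 without the second control pool, 0.124 without control pool 24, and 0.0659 without the second dichloroacetate pool. It was 0.182 with limma, 0.0783 without robust estimation and 0.0576 with the stricter filter, so that the call rests on these libraries and on the method. Over all alternatives it lay between 9.24e-07 and 1.

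The number of genes called by the interaction also moved when single libraries were left out. It was 6 without iodoacetate pool 10, 5 without iodoacetate pool 12, 3 without control pool 22, 1 without the second dichloroacetate pool and 1 without control pool 24. It was 0 without the second control pool, where 375 genes had an unadjusted p under 0.05 in edgeR's test.

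**Figure D5:**
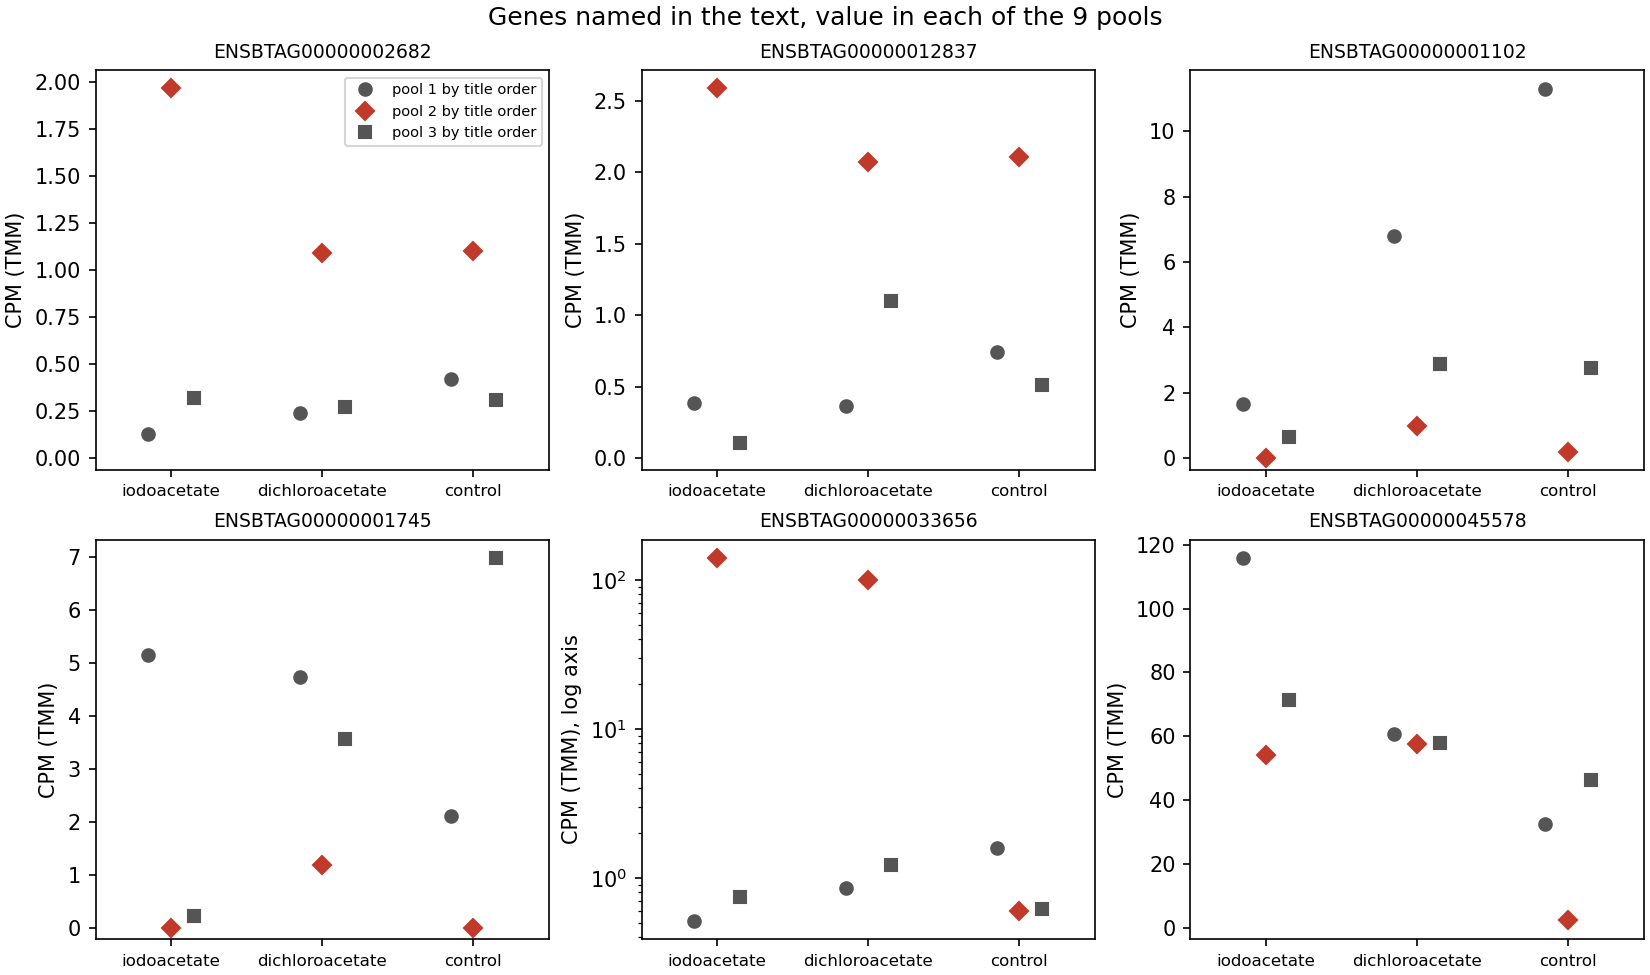
Expression (CPM after TMM scaling) of the 6 genes named in the text in each of the 9 libraries, by treatment, with the second pools as red diamonds; the panel of ENSBTAG00000033656 has a log axis. The upper left and upper middle genes are higher and the upper right and lower left genes lower in every second pool, ENSBTAG00000033656 is high in the second pools of iodoacetate and dichloroacetate, and ENSBTAG00000045578 is low in the second control pool.

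Transcripts present in 1 pool of a treatment and nearly absent from the others were few. With at least 10 CPM in 1 pool and under 2 CPM in both others, the second pools had 3 genes in the iodoacetate group and 1 gene each in the dichloroacetate and control groups. The other pools had 0 to 2. The reverse, under 2 CPM in 1 pool and at least 10 CPM in both others, was seen for 2 genes in the second control pool and for 0 to 1 genes in every other library.

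Differences between treatments were also read for the genes that were higher or lower in the second pools. In the fit with the second pool as a term, the 1925 higher genes had a median log2 fold change of -0.16 with iodoacetate and -0.23 with dichloroacetate against control. The 1538 lower genes had medians of 0.13 and 0.17, and all genes had medians of 0.001 and -0.011. Both comparisons share the 3 control libraries, which also took part in choosing the genes, so these medians are given as a description.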

How the data were processed

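RNA was sequenced from pools of 5 mature oocytes after amplification with the SMART-Seq HT kit, which has no molecular identifiers and does not mark strand. The deposited file holds raw read counts per gene, not normalized. Per the submitters' processing notes, Trim Galore, cutadapt, STAR, featureCounts and DESeq2 were used; for their versions, the genome build, the annotation and the counting mode, the sources used here give nothing. Reads from near-identical or overlapping genes may be divided in an unknown way.

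All 9 columns were assigned by sample title. Pools of a treatment differed by more than counting noise (a chi-square of 12.1 to 44.2 per degree of freedom), so none was taken as a copy of another file; separate amplifications of 1 pool would differ in this way too. With edgeR 4.0.16 in R 4.3.3, the default filter kept 12016 of 15978 genes; those left out held 0.149% of counts. TMM factors, a quasi-likelihood fit with treatment and second pool as terms, and a fit with their interaction were used. Standard errors came from the F statistic. Log2 differences within treatments were taken between log2 CPM values, with 2 as the prior count. Thinning drew reads without replacement. Ratios with counting intervals pool the reads of the other pools. Alternatives used DESeq2 1.42.0 and limma 3.58.1. Fits were tested on simulated data. An adjusted p under 0.05 counted as a call.

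The pools, lists and rules were chosen with earlier results of these data known. Named are the 2 identifiers with the largest fold change in each direction among genes higher or lower in every treatment, and genes called by the interaction. The 100 most abundant genes, the pairs over 2-fold, the genes present in 1 pool and the treatment medians were described after the data were seen. No sequences are shown, since the identifiers were not matched to a reference.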

Additional observations from a re-analysis of the deposited data

Results flagged for a closer look

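For 2 genes the difference between the second pool and the other pools of a treatment itself differed between treatments by edgeR's quasi-likelihood test of the interaction with Benjamini-Hochberg adjustment. Each second pool is 1 library, assumed to vary like the others, and the spread comes from pairs of pools that are the closer ones by the choice of the second pools, so that these p-values compare libraries, not treatments, and are not corrected for that choice. ENSBTAG00000033656 had an adjusted p of 8.88e-05, with 141 and 99.1 CPM in the second pools of iodoacetate and dichloroacetate and 0.515 to 1.59 CPM in the other 7 libraries. It passed the filter only with the second pools counted. ENSBTAG00000045578 had an adjusted p of 0.0155, with 2.51 CPM in the second control pool and 32.6 to 116 CPM in the other 8 libraries. In 14 sets of values from the 6 other pools (8 library measures and the 6 named genes), 0 libraries lay far enough from the rest to pass Dixon's criterion, which flags about 1 set in 20 by chance.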

How the results depend on the processing

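The counts of genes higher and lower in every treatment, with and without a 2-fold difference, stayed within 1.5 times their values with DESeq2 size factors, upper quartile scaling and thinning to the smallest total. With library totals only, an alternative chosen after seeing the data, they were 2910 and 802, and 481 and 71 over 2-fold, and the median of the 100 most abundant genes was -0.154. Without a filter, the correlation with expression was -0.0876, 389 and 249 genes were over 2-fold and the first axis held 30.4% of the variance. With at least 5 CPM in 3 libraries these values were 104, 49 and 46.1%, and the interaction called 0 genes in edgeR (196 with an unadjusted p under 0.05; no other tool was run at that filter). A 1.5-fold threshold gave 1095 and 639 genes. The interaction called 1 gene without robust estimation and 1 with limma. Leaving out 1 library gave 2086 to 2838 higher and 1732 to 2580 lower genes, 241 to 464 and 142 to 332 of them over 2-fold, and 0 to 6 interaction calls. Fewer libraries have to agree in these fits, which mostly raises the counts by construction. The first axis then held 31.2% to 41.7%, the median of the 100 genes was -0.376 to -0.222, and the correlation with expression -0.197 to -0.0635. The fold changes of the 4 genes named as higher or lower kept their sign in every alternative that gave a value. The cause of the other changes was not tested. Gene lists were not run. The labels give the treatments no common replicate numbers. With the position in title order as a replicate block, chosen after seeing the data, the interaction called 5 genes in edgeR (479 with an unadjusted p under 0.05), and the treatment medians of the 1925 higher genes were -0.161 (iodoacetate) and -0.228 (dichloroacetate). The contrast of second and other pools is itself part of that block and has no blocked value. For genes of low abundance, depth limits the values to a few reads per library.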
